A study of Mus musculus with 12 samples.

Results

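Spleen RNA-seq was used to compare B+A10-FMT mice, which had received busulfan and then gut content from alginate-dosed donors, with saline-dosed control mice (Con-sa). The groups were taken from the agent label, and the question was which differences from control remained in the spleen after busulfan and transfer. The comparison held 6 of the 12 mice of the series, 3 in each group, and 12397 of 18221 genes, those with at least 1 RPKM in at least 3 of the 6 mice. RPKM is the number of reads of a gene scaled to transcript length and to the mapped reads of the library, and the values of all transcripts of a gene were summed.

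All animals were male mice of the ICR stock, which is outbred, so mice of different groups can differ in genotype. B+A10-FMT mice were given 1 injection of busulfan at 40 mg/kg from 3 weeks of age and then 14 days of microbiota from donors dosed with alginate oligosaccharide at 10 mg/kg. Con-sa mice were given saline and neither busulfan nor microbiota, so that the drug and the transfer cannot be told apart here. The remaining groups serve as reference points, B-sa with busulfan and saline and B+Con-FMT with busulfan and microbiota of undosed donors. The donor material of each kind was pooled, and spleens were taken at 8 weeks of age. The labels do not say whether the 3 mice of a group shared a cage, so p-values measure the spread between these mice.

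The spleen filters blood. Macrophages of its red pulp take up old red cells and return their iron to the circulation, and its white pulp holds B and T lymphocytes. Natural killer cells lie mostly in the red pulp and carry lectin-like receptors of the Ly49 family (Klra genes) and the NKR-P1 family (Klrb1 genes). Those of the Ly49 family read class I molecules on other cells. Busulfan is an alkylating drug that crosslinks DNA and is best known for its effect on blood-forming stem cells.

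The summed RPKM of a mouse lay between 677033 and 772157, and globin transcripts made up 23.3% to 32.4% of it. The tables hold RPKM and not counts, and the steps between the lowest values point only roughly to 12200000 to 13200000 reads per mouse. Profiles of log2(RPKM + 1) over the 12397 kept genes correlated at 0.985 to 0.9948 within the groups and at 0.9822 to 0.9924 between them. The axis of largest spread among the 6 mice carried 41.5% of the variance, was led by genes of kidney, liver and pancreas such as Kap, Alb and Amy2b, and put all 3 Con-sa mice on the positive side (0.302 to 0.422) and all 3 B+A10-FMT mice on the negative side (-0.601 to -0.012). The next axis, with 32.5%, set Con-sa 2 and B+A10-FMT 3 apart from the others, and these are the mice of highest pancreas gene level in their groups.

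Few genes passed the test against control. At an adjusted p under 0.05 (limma on log2(RPKM + 1), Benjamini-Hochberg over 12397 genes), 53 genes were called, or 0.428% of those tested. Of these, 15 were higher in B+A10-FMT (0.121%) and 38 were lower (0.307%). The higher genes moved by log2 0.26 to 0.77 and the lower ones by -5.24 to -0.26, and all 14 genes that moved by a log2 of at least 1 were lower. The smallest adjusted p was 0.0106, and 0 genes passed an adjusted p of 0.001 together with an absolute log2 of at least 1, while 1657 genes had an unadjusted p under 0.05. The 6 mice did not overlap for any of the 53 genes, as for 21.6% of all tested genes. Of the 38 lower genes, 11 lay under 1 RPKM in all 3 B+A10-FMT mice and were kept only through their level in Con-sa. The number of calls rested on single mice. Ncr1 was the only gene called without B+A10-FMT 1. There were 12 calls without B+A10-FMT 2, 16 without Con-sa 1, 22 without Con-sa 2, 25 without Con-sa 3 and 27 without both Con-sa 2 and B+A10-FMT 3, while all 53 genes kept their direction in each of these fits.

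**Figure D1:**
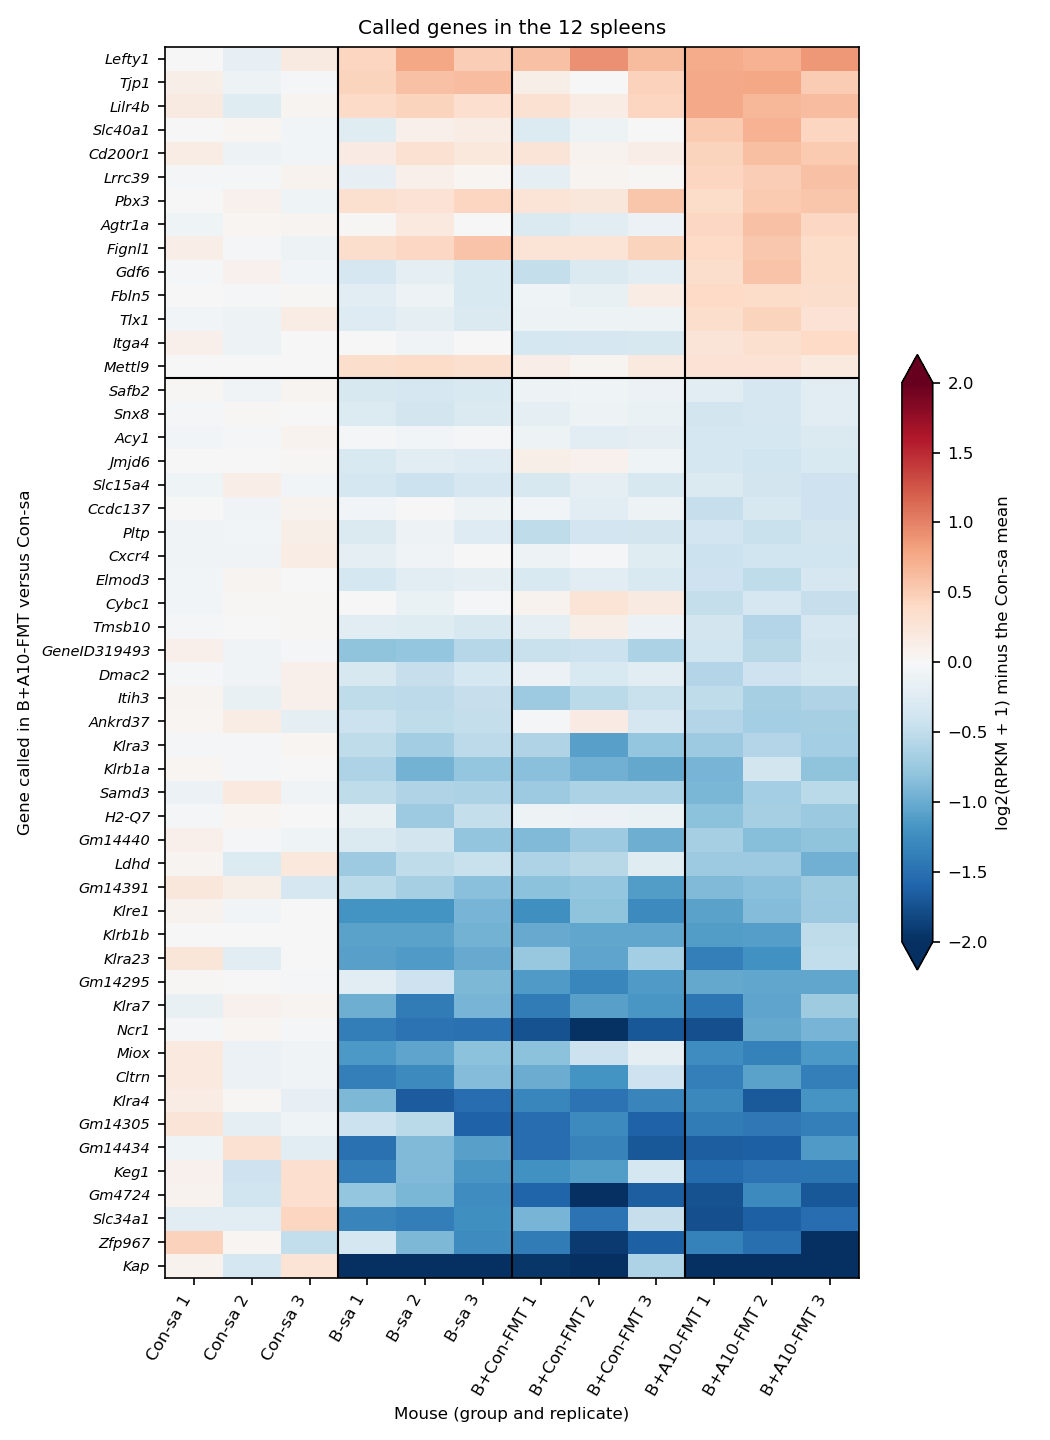
Heat map of 52 of the called genes (rows, ordered by log2 fold change) in the 12 mice (columns), coloured by log2(RPKM + 1) minus the mean of the 3 Con-sa mice, with colours ending at a difference of 2. The 14 genes above the line are higher and the 38 below it lower in all 3 B+A10-FMT mice than in all 3 Con-sa mice, and Kap in the bottom row shows the widest gap.

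A first group among the lower genes with a shared role was that of killer-cell receptors. Ncr1, the activating receptor NKp46 of natural killer cells, and the lectin receptors Klra3, Klra4, Klra7, Klra23, Klrb1a, Klrb1b and Klre1 were all lower in B+A10-FMT, by 2.18-fold to 4.06-fold between group means. So was Samd3, a gene of little known function that was grouped here for its expression in killer cells. Klre1 and Ncr1 are shown by their promoters, since both were lower in every mouse given busulfan and their transcripts share no 50-base stretch with any other gene. In the lines below, taken from RefSeq on GRCm38.p6, the first lies at chr7:4337465-4337764 on the plus strand and the second at chr6:129577963-129578262 on the plus strand, each from 250 bases before to 50 bases after the start of transcription. Capitals mark the RUNX motif TGTGGT and the T-box motif TCACAC on either strand, which are bound by factor families known from killer cells.
Ncr1: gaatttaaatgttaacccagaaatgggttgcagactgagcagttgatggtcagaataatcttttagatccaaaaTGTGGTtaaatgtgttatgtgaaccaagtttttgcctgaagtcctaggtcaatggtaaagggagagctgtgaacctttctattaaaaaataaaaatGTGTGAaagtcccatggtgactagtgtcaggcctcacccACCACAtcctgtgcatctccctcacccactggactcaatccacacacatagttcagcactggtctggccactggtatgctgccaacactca
Klre1: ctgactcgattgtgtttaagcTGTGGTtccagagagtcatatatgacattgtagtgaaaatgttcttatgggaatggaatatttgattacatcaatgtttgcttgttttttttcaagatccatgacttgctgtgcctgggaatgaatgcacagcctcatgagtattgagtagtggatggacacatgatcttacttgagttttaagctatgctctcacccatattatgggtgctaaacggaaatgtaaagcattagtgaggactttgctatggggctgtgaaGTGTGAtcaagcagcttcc

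The Ncr1 window holds 2 RUNX matches and 1 T-box match, and the Klre1 window 1 of each. Of the 9 called killer-cell genes, 8 had a promoter in the table, and 3 of these held a RUNX match and 3 a T-box match. Among the promoters of all tested genes, 13.1% held the RUNX letters and 11.1% the T-box letters, so a match is a description of the sequence only. The 3 Ly49 promoters of Klra3, Klra4 and Klra7 were 44.8% to 49.4% identical to one another.

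Ncr1 stood at 12.71, 13.29 and 12.62 RPKM in the Con-sa mice and at 3.10, 5.85 and 6.32 RPKM in the B+A10-FMT mice. The groups did not overlap, and the control mice lay closer together than the B+A10-FMT mice. The log2 fold change was -1.23 ± 0.17 (SE) with an adjusted p of 0.0125 (limma, n = 3 per group). B-sa mice had 3.91 to 4.31 RPKM and B+Con-FMT mice 2.51 to 3.29 RPKM, and B+A10-FMT exceeded B-sa by a log2 of 0.22 with an adjusted p of 0.448 (limma).

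Klra4, an activating Ly49 receptor, was measured at 5.74, 5.21 and 4.44 RPKM in Con-sa and at 1.51, 0.90 and 1.70 RPKM in B+A10-FMT. Every mouse given busulfan was below every control mouse, with 0.92 to 2.27 RPKM in B-sa and 1.2 to 1.47 RPKM in B+Con-FMT. Its log2 fold change against Con-sa was -1.38 ± 0.18 (SE, adjusted p 0.0106 by limma). Klra7, an inhibitory Ly49 receptor, went from 4.44, 5.36 and 5.27 RPKM in Con-sa to 1.2, 1.90 and 2.66 RPKM in B+A10-FMT (log2 -1.07 ± 0.17, SE, adjusted p 0.0214 by limma).

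Klre1, a lectin receptor that pairs with Klri chains, stood at 5.77, 5.22 and 5.43 RPKM in Con-sa and 2.09, 2.54 and 2.91 RPKM in B+A10-FMT. Klrb1b, an inhibitory NKR-P1 receptor, stood at 3.82, 3.85 and 3.83 RPKM in Con-sa and 1.22, 1.25 and 2.41 RPKM in B+A10-FMT. Both changed by about the same amount, with log2 values of -0.89 and -0.91 and an adjusted p of 0.0125 each (limma). Klra3, Klra23, Klrb1a and Samd3 were low in control too, at group means of 1.51 to 1.94 RPKM, and fell below a mean of 1 RPKM in B+A10-FMT. Between 4.68% and 29.0% of the 50-base stretches of Klra3, Klra4, Klra7, Klrb1a and Klrb1b also occur in other genes, so that some of their reads may belong to relatives, and Klra23 has no position on the primary assembly in the table used.

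**Figure D2:**
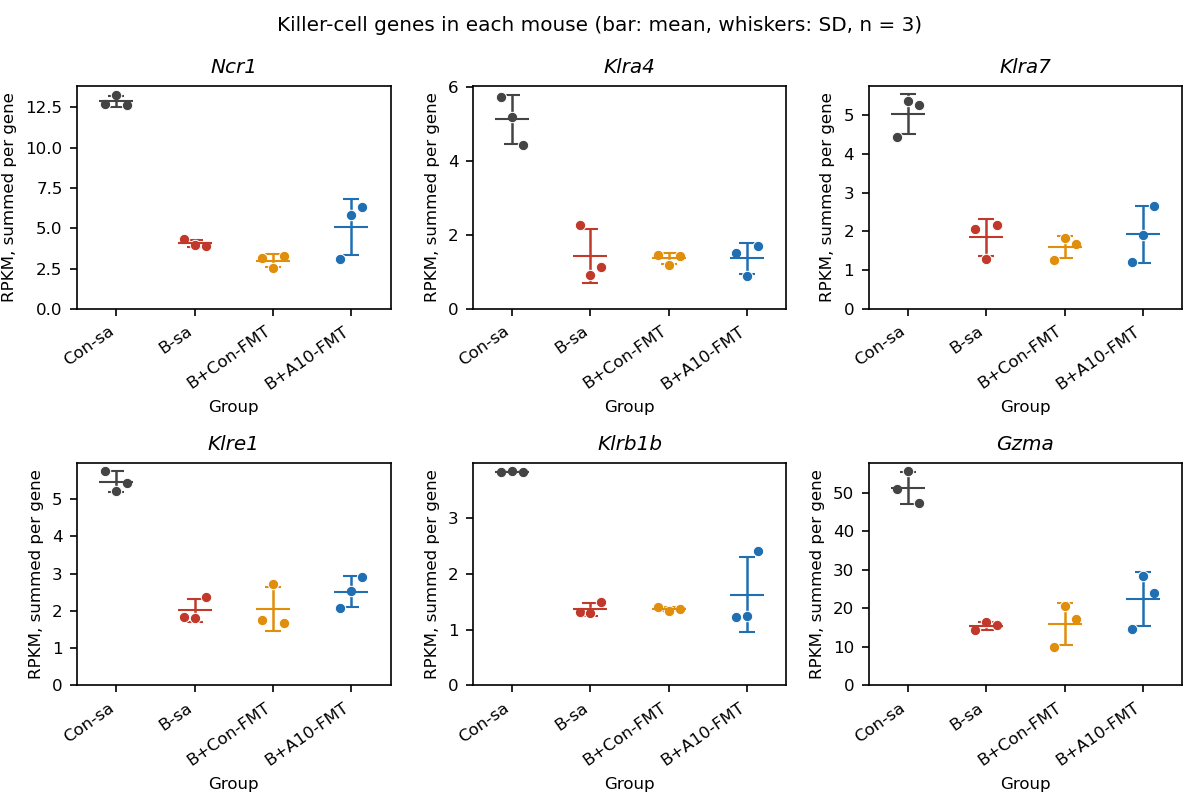
RPKM of Ncr1, Klra4, Klra7, Klre1, Klrb1b and Gzma (y axes from 0) in the 4 groups (x axes), with 1 point per mouse, the mean as a bar and the SD as whiskers (n = 3). In each panel the 3 Con-sa mice lie above all 9 mice given busulfan, and for Ncr1 the B+A10-FMT mice lie at 3.10 to 6.32.

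In the list of cytotoxic and killer lectin genes, 34 of 39 genes passed the filter on low values. The list was chosen with earlier results of these data known, so its shares are not independent of them. Of these, 7 were lower and 0 higher (0.307% and 0.121% of all genes), 27 had a log2 fold change below 0, and 21 did not overlap between the groups (21.6% of all genes). Of the 7, Klra3 and Klrb1a had passed the filter only through Con-sa, and 4 genes of the list were lower when at least 1 RPKM was asked in each of the 6 mice. The median was -0.35, against 0.01 over all genes, and it was -0.57 for B-sa and -0.62 for B+Con-FMT against the same 3 control mice. The number of lower genes in the list was 1 without Con-sa 1 or without B+A10-FMT 1, 3 without B+A10-FMT 2 and 4 without Con-sa 2 or Con-sa 3. The effector genes of killer cells did not pass the test. Granzyme A (Gzma) stood at 50.84, 55.50 and 47.21 RPKM in Con-sa and at 14.71, 28.47 and 23.90 RPKM in B+A10-FMT, a log2 of -1.20 with an adjusted p of 0.13 (limma). The pore-forming protein Prf1 differed by a log2 of -0.17 and the granule protein Nkg7 by -0.28, and the killer-cell factor Eomes by -0.37, with adjusted p-values of 0.468, 0.128 and 0.13 (limma). Granzyme B (Gzmb) lay on the other side of 0, at 2.73, 3.5 and 1.68 RPKM in Con-sa and at 2.49, 4.84 and 3.30 RPKM in B+A10-FMT (log2 0.32, adjusted p 0.596 by limma). The summed RPKM of the whole list was 367.2 to 393.4 in Con-sa and 268.5 to 308.1 in B+A10-FMT. In bulk RNA, fewer killer cells and less RNA per cell cannot be told apart.

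Of the called receptor genes, 6 lie in the killer-cell gene complex on chromosome 6, between 128609227 and 130337626 (GRCm38). This stretch was bounded by the outermost of them, after their values were seen. It holds 42 genes of the tables, of which 28 were tested, 6 were lower and 0 higher (0.307% and 0.121% of all genes), and 18 lay below 0, with a median log2 of -0.29 and a range of -1.38 to 0.52. Of the 6, Klra3 and Klrb1a were tested only through their level in Con-sa.

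Genes known from the kidney formed a further group of lower genes, and Kap had the largest log2 change of the 53 called genes. Kap, the androgen-regulated protein of the proximal tubule, stood at 96.89, 72.66 and 112.29 RPKM in Con-sa and at 1.43, 0.58 and 2.96 RPKM in B+A10-FMT, a 56.7-fold difference between the means. Its log2 fold change was -5.24 ± 0.51 (SE, adjusted p 0.0106 by limma). The groups lay far apart, and Kap was intermediate in B-sa, at 7.23 to 14.43 RPKM, and in B+Con-FMT, at 16.84 to 59.98 RPKM. B+A10-FMT was lower than B-sa as well, by a log2 of -2.24 with an adjusted p of 0.0443 (limma).

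Of the other genes placed here, Slc34a1, Miox, Keg1 and Cltrn were near the floor in B+A10-FMT. The phosphate transporter Slc34a1 stood at 2.05, 2.02 and 3.73 RPKM in Con-sa and at 0.04, 0.13 and 0.23 RPKM in B+A10-FMT. The inositol oxygenase Miox stood at 1.90, 1.33 and 1.42 RPKM in Con-sa and at 0.07, 0.00 and 0.15 RPKM in B+A10-FMT. Keg1, named for its expression in kidney, and Cltrn, which helps amino acid transporters to the tubule surface, were at means of 2.08 and 1.59 RPKM in Con-sa and 0.07 and 0.0767 RPKM in B+A10-FMT. Each was lower at an adjusted p of 0.0106 to 0.0214 (limma), and each entered the test only through its level in Con-sa. The D-lactate dehydrogenase Ldhd, the aminoacylase Acy1 and the inter-alpha-trypsin inhibitor chain Itih3 were lower by log2 -0.80, -0.33 and -0.59, and Ldhd was tested only through its level in Con-sa. Acy1 and Itih3 were not near the floor in B+A10-FMT, at 5.63 to 5.90 RPKM and 1.21 to 1.46 RPKM. Unlike Kap, Acy1 was near control in B-sa, at a mean of 7.25 RPKM beside 7.44 RPKM in Con-sa. Keg1, Cltrn, Ldhd, Acy1 and Itih3 belong to none of the gene lists and were placed here after their values were seen.

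Of the 22 genes of the kidney list, 6 passed the filter and 3 of these (Kap, Slc34a1 and Miox) were lower, beside 0.307% of all genes. Slc34a1 and Miox had passed only through Con-sa, so this share is in part set by the filter. Genes that define 2 other parts of the kidney were at or under 1 RPKM in both groups. Umod, of the thick ascending limb, was listed at 0.87, 0.65 and 1 RPKM in Con-sa and at 0 in the 3 B+A10-FMT mice, and Aqp2 of the collecting duct at up to 0.05 RPKM. Without Aqp1, which red cells carry too, and without Kap, the list summed to 43.9, 24.04 and 62.64 RPKM in Con-sa and to 16.07, 17.52 and 14.46 RPKM in B+A10-FMT.

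Genes of other tissues next to the spleen varied widely between mice. A set of 10 liver genes, chosen after seeing the data, summed to 351.4, 65.12 and 764.4 RPKM in Con-sa and to 51.7, 17.22 and 23.03 RPKM in B+A10-FMT. The pancreas list summed to 4343, 9835 and 1827 RPKM in Con-sa and to 635.8, 1134 and 13590 RPKM in B+A10-FMT, with overlapping groups, and 27 of its 29 tested genes lay below 0 (median log2 -0.87) with 0 calls and 1 gene at an unadjusted p under 0.05 (limma). The adipocyte list stood at 362.0 to 575.4 RPKM in Con-sa and 267.9 to 287.9 RPKM in B+A10-FMT, and 15 of its 16 tested genes lay below 0 (median log2 -0.50), with 0 calls by limma and 8 genes at an unadjusted p under 0.05. Over all tested genes, 1657 of 12397 reached an unadjusted p under 0.05 (limma). The capsule (mesothelial) list stood at 145.6 to 193.3 RPKM in Con-sa and 99.04 to 160.1 RPKM in B+A10-FMT, with a median log2 of -0.14 over 13 tested genes. The part of tissue carried along with the spleen in the kidney, liver and adipocyte values was not tested. With totals made equal outside the pancreas and kidney lists, 45 of the 53 genes were still called.

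**Figure D3:**
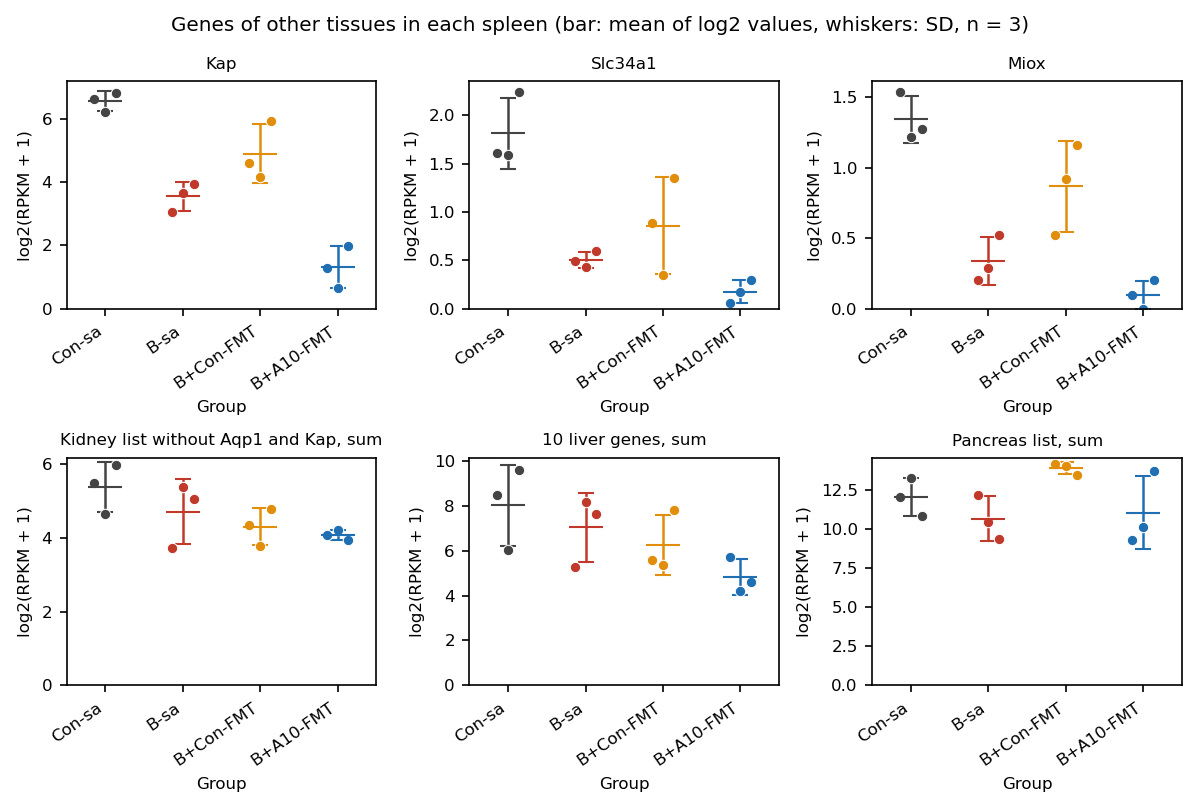
Level in each mouse, as log2(RPKM + 1) on y axes from 0, of Kap, Slc34a1 and Miox and of the summed kidney (without Aqp1 and Kap, with Cyp2e1), liver and pancreas genes in the 4 groups (x axes), with means as bars and SD as whiskers (n = 3). The B+A10-FMT mice are lowest for Kap, and the pancreas sums overlap between Con-sa and B+A10-FMT.

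A cluster of zinc finger genes on chromosome 2 formed the third group of lower genes. Zfp967, Gm4724, Gm14295, Gm14305, Gm14391, Gm14434 and Gm14440, which code for or are predicted to code for proteins of the KRAB zinc finger type, all lie between 175185165 and 176814092 (GRCm38). The promoters of Gm4724 and Gm14305 are shown as an example of how alike copies in this cluster can be. The Gm4724 window lies at chr2:175435728-175436027 on the minus strand, is identical over all 300 bases to that of Gm14434, and is followed by the Gm14305 window at chr2:176708103-176708402 on the plus strand, in which capitals mark bases aligned with a different base of Gm4724 and unaligned ends are left in lower case.
Gm4724: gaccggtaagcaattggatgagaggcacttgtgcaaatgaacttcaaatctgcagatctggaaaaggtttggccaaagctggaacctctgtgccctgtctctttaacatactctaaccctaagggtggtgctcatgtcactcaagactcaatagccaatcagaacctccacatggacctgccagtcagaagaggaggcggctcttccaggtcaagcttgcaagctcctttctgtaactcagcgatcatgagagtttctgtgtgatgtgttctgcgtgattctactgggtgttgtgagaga
Gm14305: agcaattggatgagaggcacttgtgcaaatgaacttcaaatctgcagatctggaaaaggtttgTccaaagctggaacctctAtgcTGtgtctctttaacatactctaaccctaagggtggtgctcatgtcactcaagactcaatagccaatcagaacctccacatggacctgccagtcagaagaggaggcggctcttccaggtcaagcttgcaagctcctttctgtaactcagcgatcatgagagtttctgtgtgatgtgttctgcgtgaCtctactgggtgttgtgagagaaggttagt

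Over the 21 pairs of these 7 genes, promoter identity ran from 59.4% to 100%, with a median of 76.2%, and it was 93.2% for the pair shown. In their longest transcripts, 66.5% to 100% of the 50-base stretches also occur in other genes, and the share was 100% for Gm4724, Gm14391, Gm14434, Gm14440 and Zfp967. How reads were divided between the copies is therefore uncertain, and the values are best read as those of the cluster.

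Gm14295, with the smallest share of such stretches, stood at 10.86, 10.67 and 10.31 RPKM in Con-sa and at 4.69, 4.63 and 4.62 RPKM in B+A10-FMT. The spread within each group was small beside the gap (log2 -1.04 ± 0.13, SE, adjusted p 0.0106 by limma). B+Con-FMT mice had 3.69 to 4.31 RPKM and B-sa mice 5.24 to 8.92 RPKM, and B+A10-FMT was lower than B-sa by a log2 of -0.53 (adjusted p 0.0346 by limma). Gm4724 went from 3.26, 2.08 and 4.17 RPKM in Con-sa to 0.22, 0.68 and 0.26 RPKM in B+A10-FMT. Gm14440 went from 3.76, 3.37 and 3.17 RPKM to 1.79, 1.46 and 1.53 RPKM. The tables hold 18 genes of this stretch, whose ends are called genes. Of the 11 tested, 7 were lower (0.307% of all genes) and all 11 lay below 0, with a median log2 of -0.81. Of the 7, Zfp967, Gm4724, Gm14434 and Gm14305 were tested only through their level in Con-sa. Farther along chromosome 2, past the end of the stretch, Gm14296, Zfp970, Zfp971 and Zfp972 were not called. Their log2 values were -0.41, -0.47, -0.16 and 0.34.

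The other lower genes were of various kinds. H2-Q7, a nonclassical class I gene of the Qa-2 group, stood at 25.37, 26.88 and 25.76 RPKM in Con-sa and at 14.32, 15.96 and 15.16 RPKM in B+A10-FMT (log2 -0.74 ± 0.11, SE, adjusted p 0.0125 by limma). B+Con-FMT mice had 23.57 to 24.22 RPKM and B-sa mice 23.23, 15.32 and 18.31 RPKM, the latter lower than Con-sa by a log2 of -0.46 (adjusted p 0.016 by limma). In H2-Q7, 34.9% of the 50-base stretches occur in other genes, with H2-Q6 sharing more of them than any other gene. H2-Q6 itself had 27.76, 24.71 and 21.16 RPKM in Con-sa and 12.62, 14.20 and 22.01 RPKM in B+A10-FMT, with overlapping groups and an adjusted p of 0.375 (limma).

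Cybc1, needed for assembly of the phagocyte NADPH oxidase, stood at 56.49, 59.41 and 59.62 RPKM in Con-sa and at 41.87, 46.18 and 42.05 RPKM in B+A10-FMT. It was below every mouse of the other 3 groups, and B+A10-FMT was lower than B-sa with an adjusted p of 0.00892 and lower than B+Con-FMT with an adjusted p of 0.000332 (limma). Cxcr4, the receptor for the retention signal Cxcl12, was also lowest in B+A10-FMT by group mean, with 77.56 to 90.32 RPKM in Con-sa and 60.17 to 61.81 RPKM in B+A10-FMT. The actin-binding peptide gene Tmsb10 stood at 1108.09 to 1157.94 RPKM in Con-sa and at 758.86 to 899.43 RPKM in B+A10-FMT, with 43.5% of its 50-base stretches shared with other genes. The remaining lower genes were Ankrd37, Ccdc137, Dmac2, Elmod3, Jmjd6, Pltp, Safb2, Slc15a4, Snx8 and 1 gene without a symbol (Entrez Gene 319493), with log2 values of -0.65 to -0.26.

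Of the 15 higher genes, those that also exceeded B-sa are given first. As calls the 15 rested on single mice, with 0 higher genes without B+A10-FMT 1 or without B+A10-FMT 2 and 1 without Con-sa 2. Slc40a1, the iron exporter ferroportin of red pulp macrophages, stood at 96.59, 98.52 and 92.06 RPKM in Con-sa and at 137.58, 156.17 and 128.65 RPKM in B+A10-FMT. It was 1.47-fold higher (log2 0.55 ± 0.10, SE, adjusted p 0.0413 by limma), above every mouse of the other groups, which lay at 79.06 to 105.97 RPKM. Against B-sa the log2 difference was 0.55 with an adjusted p of 0.0136, and against B+Con-FMT it was 0.68 with an adjusted p of 0.0035 (limma). Across 25 alternative settings, which include each mouse left out in turn, Slc40a1 kept its direction and was called against Con-sa in 11.

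Itga4, the integrin chain that binds Vcam1, stood at 47.09, 40.96 and 43.96 RPKM in Con-sa and at 52.93, 55.24 and 58.02 RPKM in B+A10-FMT (log2 0.33 ± 0.06, SE, adjusted p 0.0243 by limma). The B+A10-FMT mice lay above the other 9 mice. Tlx1, a homeobox factor required for the spleen to form, had 15.03, 14.47 and 17.51 RPKM in Con-sa and 20.24, 21.64 and 19.27 RPKM in B+A10-FMT. The growth factor Gdf6 had 9.55, 10.47 and 9.45 RPKM in Con-sa and 12.87, 14.99 and 12.93 RPKM in B+A10-FMT.

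The elastic fibre protein Fbln5 had 33.27 to 34.17 RPKM in Con-sa and 43.27 to 44.99 RPKM in B+A10-FMT, and the angiotensin receptor Agtr1a had 12.93 to 14.33 RPKM and 18.70 to 21.22 RPKM. Lrrc39 had 2.66 to 2.97 RPKM and 4.11 to 4.69 RPKM. For these genes no mouse of another group reached the B+A10-FMT range. Their adjusted p against Con-sa was 0.0214 for Agtr1a, 0.0331 for Lrrc39 and 0.0417 for Fbln5, Gdf6 and Tlx1, and against B-sa it was 0.00114 to 0.015 (limma). In B-sa, Tlx1 and Gdf6 fell below control by log2 -0.25 and -0.27, with adjusted p-values of 0.0333 and 0.0425 (limma). In the same 25 settings, Agtr1a was called against Con-sa in 19, Itga4 in 17, Lrrc39 in 16, Fbln5 in 11, Gdf6 in 9 and Tlx1 in 8.

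**Figure D4:**
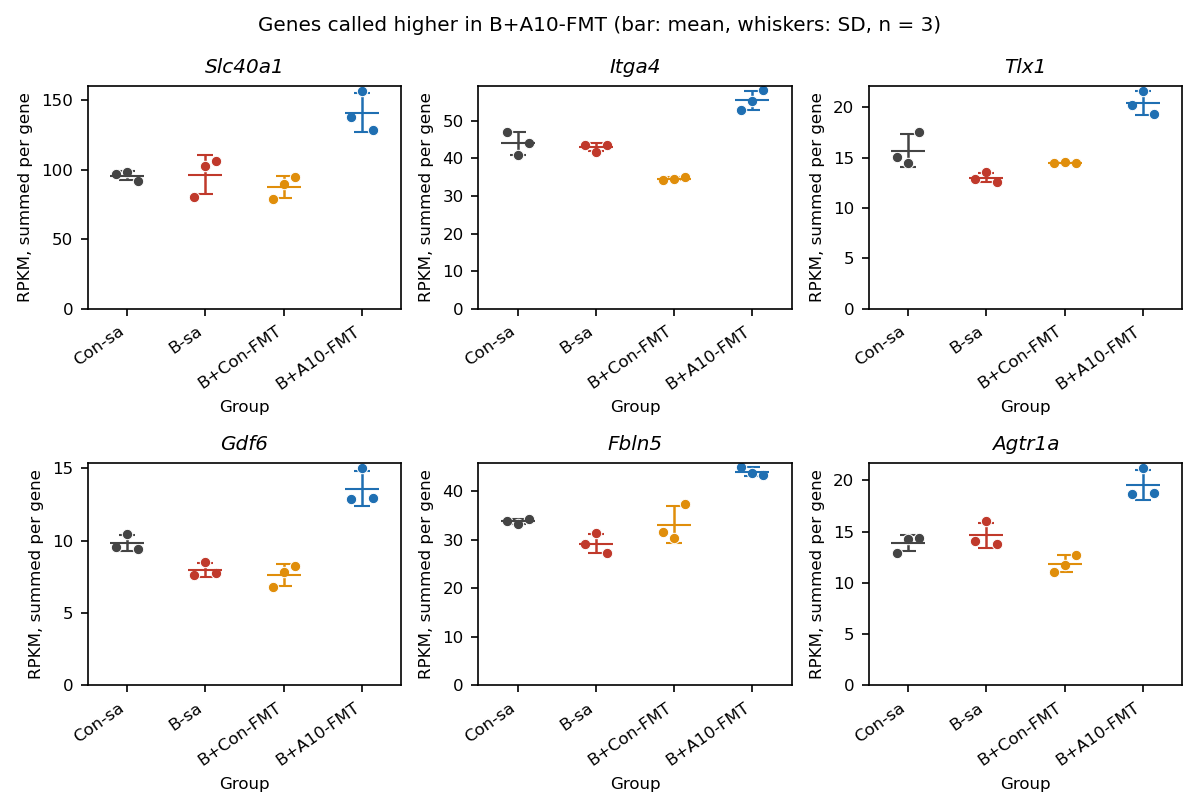
RPKM of Slc40a1, Itga4, Tlx1, Gdf6, Fbln5 and Agtr1a (y axes from 0) in the 4 groups (x axes), with 1 point per mouse, the mean as a bar and the SD as whiskers (n = 3). The B+A10-FMT mice lie above all other mice in each panel, for Slc40a1 at 128.65 to 156.17 against 79.06 to 105.97.

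The other higher genes had adjusted p-values of 0.067 to 0.971 against B-sa (limma). Fignl1, an ATPase that acts in repair by homologous recombination, had 17.20 to 20.37 RPKM in Con-sa, 24.23 to 27.37 RPKM in B+A10-FMT and 23.91 to 27.85 RPKM in B-sa. Of the 22 genes of the crosslink repair list, 16 lay above 0, and the median log2 was 0.06.

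Lefty1, an inhibitor of Nodal signals, had 0.98, 0.77 and 1.24 RPKM in Con-sa and 2.31, 2.22 and 2.64 RPKM in B+A10-FMT, and Tjp1, the tight junction protein ZO-1, had 4.05 to 4.86 RPKM and 6.70 to 8.23 RPKM. The myeloid receptors Lilr4b and Cd200r1 were higher by log2 0.68 and 0.52, the homeobox factor Pbx3 by 0.48 and the histidine methyltransferase Mettl9 by 0.26. B-sa also exceeded Con-sa for Lefty1, Tjp1, Lilr4b, Pbx3, Fignl1 and Mettl9, at adjusted p-values of 0.0033 to 0.0356 (limma).

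Other comparisons were made in the same fit. Against Con-sa, 1853 genes (14.9%) were called in B-sa and 1157 (9.33%) in B+Con-FMT. With B+A10-FMT set against the other busulfan groups, the calls numbered 679 (5.48%) for B-sa and 1366 (11.0%) for B+Con-FMT. The first 2 use the Con-sa mice and the last 2 the B+A10-FMT mice of the comparison described here, so the counts are not independent. The median log2 of all genes was 0.01 in B+A10-FMT, -0.04 in B-sa and -0.04 in B+Con-FMT against Con-sa.

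Among 19 genes that the study names, 2 were higher (Slc40a1 and Itga4) and 0 lower, beside 0.121% and 0.307% of all genes, 12 lay above 0 and the median log2 was 0.10. The list was drawn from the study of these samples, so it is not independent evidence of a direction. Of the vessel genes, Pecam1 (CD31) stood at 50.3 to 53.48 RPKM in Con-sa and 48.59 to 53.51 RPKM in B+A10-FMT, and the VEGF receptor Kdr at 8.54 to 8.94 RPKM and 10.10 to 10.72 RPKM (adjusted p 0.944 and 0.325 by limma). Vcam1, which red pulp macrophages and stroma carry, had 107.42 to 115.12 RPKM in Con-sa and 126.06 to 151.23 RPKM in B+A10-FMT (adjusted p 0.173 by limma). The marginal zone macrophage gene Siglec1 had 10.06, 10.16 and 11.21 RPKM in Con-sa and 16.17, 20.18 and 13.62 RPKM in B+A10-FMT (log2 0.61, adjusted p 0.217 by limma). Ly6c1 and Ly6c2, of monocytes, had log2 values of 0.67 and 0.61 and were highest in B+A10-FMT 2 among the 6 mice, and Ccl21a had -0.29 (adjusted p 0.292, 0.617 and 0.588 by limma). Madcam1, Gja1, Cd163, Trp53, Bcl2, Mki67, Itgb1, Cd27, Ngfr and Ccr7 had log2 values of -0.18 to 0.13 with adjusted p-values of 0.376 to 0.944 (limma).

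In the list of red pulp iron recycling, 1 of 22 genes was higher (Slc40a1, beside 0.121% of all genes), 20 lay above 0 and the median log2 was 0.20. Its heme oxygenase Hmox1 stood at 299.67 to 312.33 RPKM in Con-sa and 341.37 to 424.70 RPKM in B+A10-FMT, with an adjusted p of 0.313 (limma). The marginal zone macrophage list had 11 of 13 genes above 0 and a median of 0.19. It had 0 calls and 5 genes at an unadjusted p under 0.05 (limma), beside 1657 of all 12397 genes. Within it, Cd209d stood at 7.68, 8.20 and 9.98 RPKM in Con-sa and at 3.10, 2.47 and 3.77 RPKM in B+A10-FMT (log2 -1.23, adjusted p 0.0537 by limma), while Cd209b had 11.86 to 16.52 RPKM and 14.16 to 30.15 RPKM.

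Of 38 endothelial genes tested, 0 were called and 3 had an unadjusted p under 0.05 (limma), beside 53 and 1657 of all 12397 genes. Among the 38 endothelial genes, 24 lay above 0, with a median log2 of 0.03 in B+A10-FMT, beside -0.24 in B-sa and -0.23 in B+Con-FMT against the same controls. The list of addressins, selectins and integrins had 1 higher gene of 20 tested, Itga4, beside 0.121% of all genes, and a median of 0.15. The matrix and smooth muscle list had a median of -0.07 with 17 of 28 genes below 0, 0 calls and 8 genes at an unadjusted p under 0.05 (limma).

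Neutrophil and interferon genes lay mostly above control with 0 calls by limma. An unadjusted p under 0.05 (limma) was reached by 5 of 22 and 21 of 51 of them, beside 1657 of all 12397 genes. In the neutrophil list, 21 of 22 genes lay above 0 with a median log2 of 0.58, beside 1.07 in B-sa and 0.37 in B+Con-FMT. Its Wfdc21 stood at 5.5 to 9.80 RPKM in Con-sa and 12.41 to 23.26 RPKM in B+A10-FMT (adjusted p 0.21 by limma). The granule protease genes Ctsg, at 11.69, 27.67 and 11.41 RPKM, and Prtn3, at 30.35, 54.74 and 21.45 RPKM, were highest in B+A10-FMT 2 within this group, beside 8.84 to 9.03 RPKM and 18.01 to 21.23 RPKM in Con-sa. In the interferon-stimulated list, 47 of 51 genes lay above 0 with a median of 0.29, beside 0.05 in B-sa and -0.01 in B+Con-FMT. The same mouse stood out here. Ifit3 had 9.75 to 13.56 RPKM in Con-sa and 16.37, 34.85 and 25.77 RPKM in B+A10-FMT, and Irf7 had 30.51 to 45.57 RPKM and 47.15, 114.92 and 62.20 RPKM, both highest in B+A10-FMT 2.

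Red cell, platelet and cycling genes lay slightly above control. The erythroid list had 33 of 35 genes above 0 (median log2 0.16), the megakaryocyte list 20 of 20 (0.30) and the cell cycle list 31 of 33 (0.15). Each had 0 calls by limma, with 6, 5 and 13 genes at an unadjusted p under 0.05, beside 1657 of all 12397 genes. The p53-induced cell cycle inhibitor Cdkn1a stood at 7.09, 7.67 and 9.27 RPKM in Con-sa and at 19.63, 14.56 and 12.04 RPKM in B+A10-FMT (log2 0.85, adjusted p 0.0703 by limma), whereas the p53 target list as a whole had a median of 0.03.

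Lymphocyte lists lay on both sides of 0, with 0 calls by limma. An unadjusted p under 0.05 was reached by 12 of 27 B cell, 2 of 15 plasma cell, 3 of 14 class II and 7 of 28 T cell genes. Among all 12397 genes, 1657 reached that p (limma). The B cell list had 23 of 27 genes below 0 (median log2 -0.16), and its survival receptor Tnfrsf13c stood at 84.69 to 91.90 RPKM in Con-sa and 65.68 to 75.08 RPKM in B+A10-FMT (adjusted p 0.0856 by limma). The plasma cell list had 14 of 15 genes below 0 (-0.17), the class II list 11 of 14 (-0.15), and the T cell list 22 of 28 above 0 (0.16). In the ribosomal protein list, 75 of 79 genes lay below 0, with a median of -0.06, 0 calls and 11 genes at an unadjusted p under 0.05 (limma). The medians of the lists not described here or above lay between -0.06 and 0.17. They held 1 higher gene (Tlx1) and 1 lower gene (Cxcr4), both among the 21 tested genes of the list of homing chemokines and stromal signals, beside 0.121% and 0.307% of all genes.

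**Figure D5:**
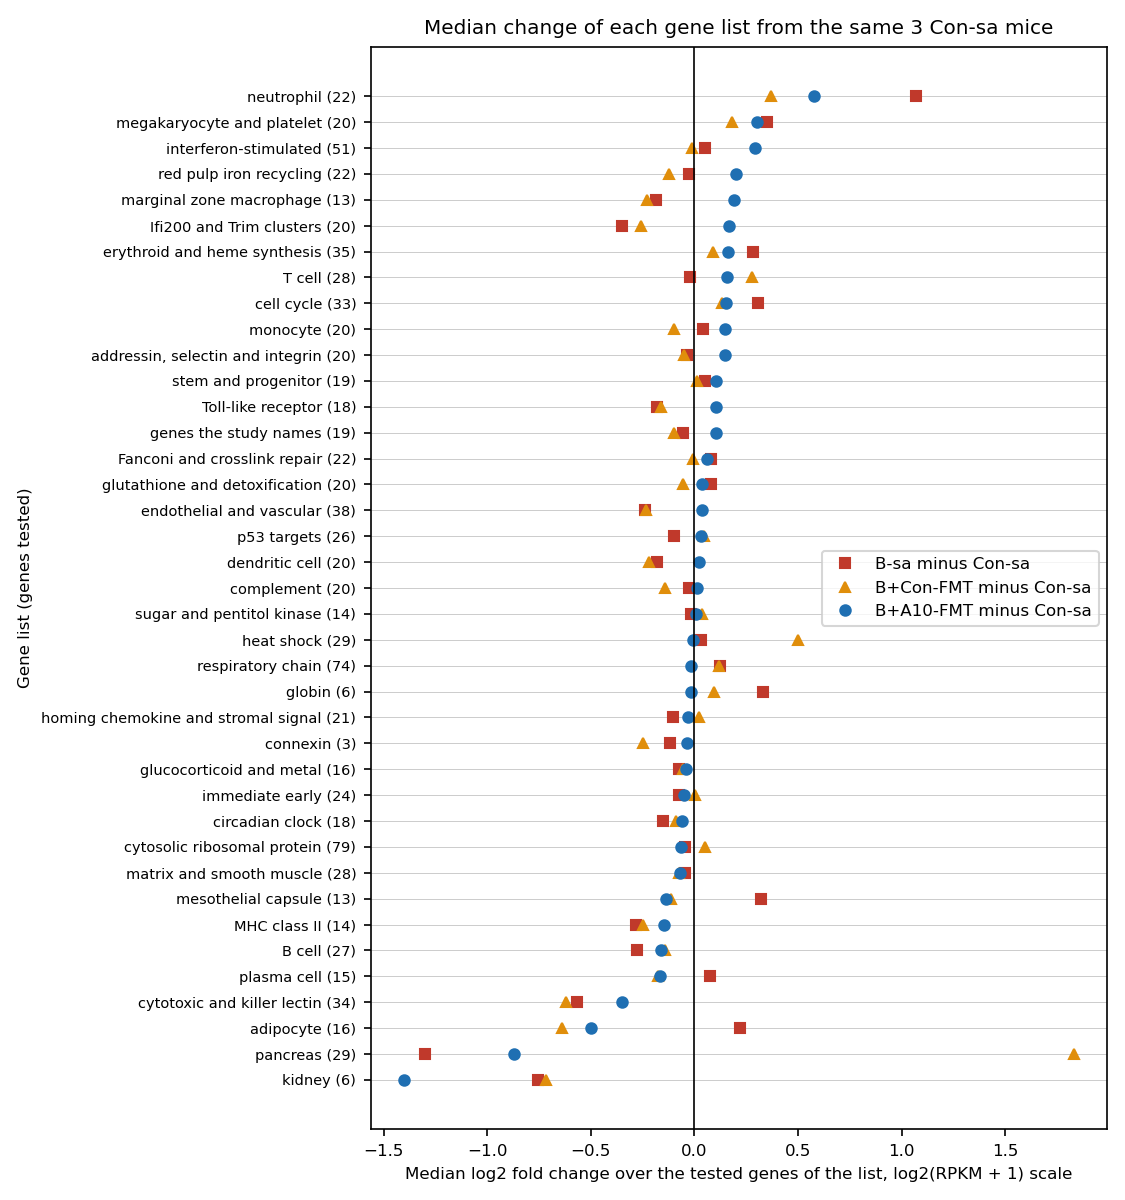
Median log2 fold change (x axis) of each of the 39 gene lists (y axis, number of tested genes in brackets) of the 3 groups given busulfan against the same 3 Con-sa mice. For B+A10-FMT the neutrophil list is highest at 0.58 and the kidney list lowest at -1.40, and the endothelial list is at 0.03 beside -0.24 in B-sa. The kidney median rests on 6 tested genes. Slc34a1 and Miox among them passed the filter only through Con-sa, so that median is in part set by the filter.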

How the data were processed

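RNA of 12 spleens was analysed, 3 per group, grouped by the agent label, and doses, ages and group names were taken from the study's methods. The authors enriched mRNA with oligo(dT), sequenced it and deposited 1 table of RPKM per mouse, with 60654 RefSeq transcripts and no counts. The submitters' processing notes name HISAT, Bowtie2 and the mm10 build, whereas the study's methods name SOAPaligner. RPKM were summed per gene (18221 genes, 18101 with a symbol in RefSeq).

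Genes with at least 1 RPKM in at least 3 of the 6 mice were tested with limma 3.58.1 in R 4.3.3 (trend, robust) on log2(RPKM + 1), which understates the change of low genes, with all 12 mice in 1 fit, two-sided, and Benjamini-Hochberg adjustment over all 12397 genes. All 5 contrasts came from this fit. The fit was tested on simulated data.

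Genes were named where called without overlap and with a group mean of at least 1 RPKM, or as members of the lists or of the study's own genes. Some genes are not reported here. Members and the 39 lists were chosen with earlier results of these data known. Shared sequence was counted in 50-base stretches of GENCODE M21 transcripts, and promoters (44 of the 53 called genes) came from RefSeq. Counting error could not be computed from RPKM, so precision rests on 3 mice per group. Alternatives are given in the closing section.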

Additional observations from a re-analysis of the deposited data

How the results depend on the processing

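The 53 called genes kept their direction wherever they were tested, but the calls depended on the setting. Counts of higher and lower genes (15 and 38 as reported) were 9 and 27 with a pseudocount of 0.1 and 8 and 20 when at least 1 RPKM was asked in each of the 6 mice, where 37 of the 53 genes could be tested. Higher genes numbered 23 with median-of-ratios scaling, 23 with equal totals outside the globin genes and 24 with the trend along transcript length removed. With each transcript on its own, 0 were higher and 2 lower, with 0 in the killer-cell list. In that setting a gene is given by its transcript of lowest adjusted p, so its value is not that of the whole gene. Leaving out Con-sa 2 and B+A10-FMT 3, added after seeing the data, left 5 higher and 22 lower. With single mice left out in turn, there were 0 to 27 higher genes, 1 to 53 lower genes, 1 to 8 lower killer-cell genes (7 as reported) and 0 to 2 genes past an adjusted p of 0.001 with an absolute log2 of at least 1. The most calls came without B-sa 1, a mouse that enters only the estimate of spread. A fit of the 6 mice alone gave 1 gene past that threshold and 4 lower killer-cell genes, as did the stricter filter for the latter. The replicate block gave 12 higher and 39 lower genes. The numbers belong to different mice, the deviations of same-numbered mice correlated at 0.0882, -0.0168 and -0.347, and Con-sa 2 correlated best with B+A10-FMT 3 and Con-sa 3 with B+A10-FMT 1, so the numbers were not taken as pairs. Among the named genes, signs reversed for Cd163 (0.06) and Pecam1 (0.899) and Trp53 (-0.134) with each transcript on its own, Pecam1 (0.006) with equal totals outside the pancreas and kidney lists, Cd27 (-0.017) without Con-sa 2 and B+A10-FMT 3, and, with 1 mouse left out, Ccr7 (-0.078 to 0.035), Cd163 (-0.302 to 0.144), Madcam1 (-0.174 to 0.029), Pecam1 (-0.047 to 0.021) and Trp53 (-0.007 to 0.059). The cause of these changes was not tested.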

Other observations

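The adult beta-globin genes differed widely between mice, within groups as well as between them. Mouse stocks carry either the Hbb-bs and Hbb-bt pair or the Hbb-b1 and Hbb-b2 pair at this locus, and the outbred ICR stock can hold both. Hbb-bs stood at 25330.46, 45902.01 and 20289.54 RPKM in Con-sa and at 8916.34, 13233.68 and 10623.37 RPKM in B+A10-FMT, while Hbb-b1 stood at 35832.11, 15052.97 and 37779.55 RPKM and at 59445.88, 43336.62 and 42544.34 RPKM. In B-sa, Hbb-bs was at 9.20 to 30.54 RPKM in all 3 mice, and in B+Con-FMT it ranged from 36.39 to 20929.59 RPKM. The class II gene H2-Ea also ranged widely, from 242.60 to 533.92 RPKM in Con-sa and from 37.38 to 267.22 RPKM in B+A10-FMT. The globin share of all transcripts was 24.9% to 25.9% in Con-sa and 23.3% to 27.6% in B+A10-FMT. The part of genotype in the lower zinc finger, Klra and H2-Q7 values was not tested.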
